A study of Mus musculus with 6 samples.

Results

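The genes described here are 3 Tcf/Lef transcription factors (Lef1, Tcf7l1 and Tcf7l2) and 7 proteins that work with them and beta-catenin in the nucleus: Bcl9 and Bcl9l, the Pygopus proteins Pygo1 and Pygo2, and the Groucho corepressors Tle1, Tle3 and Tle4. They are 10 of the 18193 genes that the arrays represented by a probe set with exactly 1 gene symbol, and they were read by 24 of the 45037 probe sets tested. Tcf7, the remaining Tcf/Lef gene, is not analysed here. The brightest probe set by its mean over the 6 arrays stood for each gene.

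RNA came from LKS+ cells, a marrow population sorted as negative for lineage markers, high in c-Kit and positive for Sca-1, which includes stem cells and multipotent progenitors. There were 3 arrays from Apcmin mice, which carry the Min allele of Apc, and 3 arrays from wild-type (WT) mice. The labels give no age, sex, strain background or zygosity, and no treatment. At least 20000 cells per mouse were sorted at a purity above 90%, per the labels' protocols, and the RNA was amplified linearly before hybridization to Affymetrix Mouse Genome 430 2.0 arrays. No label says which animal each array came from, so if arrays shared a source the p-values would measure technical spread.

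Tcf/Lef factors bind DNA through a high-mobility-group box and cannot activate transcription alone. Without Wnt signalling they hold Groucho/Tle corepressors on their target genes. When the Apc-containing destruction complex is inactive, beta-catenin accumulates, enters the nucleus, binds the same factors and recruits Bcl9 proteins, which in turn tether Pygopus. The Min allele is a truncating mutation in Apc, so the comparison of Apcmin with WT asks here whether the transcripts of this nuclear machinery differ in cells with altered Apc.

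The DNA letters that Tcf/Lef factors prefer are a core of CTTTGAA or CTTTGAT. Both were searched on both strands in RefSeq promoter windows of 300 bases (250 before to 50 after the start site, GRCm38.p6), and 8.65% of 32851 windows of all genes held at least 1. Among genes that Tcf/Lef and beta-catenin are known to drive, 5 of 20 windows held a match. They belonged to 4 of 17 genes, where the share over all 27025 genes with a window was 9.88%. Both matching Mmp7 windows held the same site, which is printed only 1 time. The sites are shown as examples of the letters that the 3 Tcf/Lef factors prefer. Capitals mark the match, read along the strand of the gene, so that the reverse complement appears as ATCAAAG.
Sp5 (chr2:70474808-70474836, plus strand): ggcaaggccccCTTTGATcaggaaaatcc
Dkk1 (chr19:30549596-30549624, minus strand): tcctcccaaagCTTTGAAatcccatcccg
Tnfrsf19 (chr14:61038172-61038200, minus strand): ctgaatgggggATCAAAGtgacaaactag
Mmp7 (chr9:7692083-7692111, plus strand): tgtcaggaaacATCAAAGtagctctgaga
For the Tcf/Lef and cofactor genes themselves, 16 windows of 9 genes were in the table (all but Bcl9l), and 0 held these letters. A match is a description of letters, not of binding.

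No member differed between the genotypes past the threshold. In limma 0 of the 10 genes and 0 of their 24 probe sets had an adjusted p under 0.05, where the share over all 45037 probe sets was 0.0%, and 0 of the 24 had an unadjusted p under 0.05, where the share over all was 3.81%. Of the 10 genes, 6 were on average higher and 4 lower in Apcmin. Their median difference (Apcmin minus WT, log2 scale) was 0.02, against -0.04 over all 18193 genes. At the level of probe sets 12 were higher and 12 lower. In 2 of the 24 probe sets the Apcmin and WT values did not overlap, where the share over all probe sets was 7.88%, and in 0 of the 10 genes at the brightest probe set, where the share over all genes was 7.73%.

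The genes fell into a bright and a dim set, which differ in how much the data can say. Tcf7l2, Bcl9, Pygo2, Tle3 and Tle4 averaged a log2 intensity of 6 or more over the arrays, and Lef1, Tcf7l1, Bcl9l, Pygo1 and Tle1 did not. The files hold no detection call, so background may set part of a difference at the dim end. The median 95% confidence half-width of the difference was 0.40 over the 8658 genes with a mean of at least 6. It was 0.63 over the 2358 genes with a mean from 4 to 6, where Tcf7l1, Bcl9l and Tle1 lay. For the 4403 genes with a mean from 2 to 4, where Lef1 lay, it was 0.56. Most of the dim genes were lower in Apcmin, but the size differed with the level. The median difference was -0.02 over the genes from 4 to 6, -0.18 over those from 2 to 4 and -0.10 over the 2774 genes under 2. Of the 9535 genes under 6, 69.1% were lower in Apcmin, whereas the median was 0.02 over the genes at 6 or more.

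On the arrays, medians ran from 4.12 to 4.18 and between 33.3% and 34.5% of probe sets reached 6. WT replicate 1 stood somewhat apart, with correlations of 0.974 to 0.981 to the other arrays, and the highest correlation between any other pair was 0.989. Y-linked genes were high on Apcmin replicate 2 and WT replicate 3 (mean log2 of 7.04 and 7.32 over 3 genes) and low on the other arrays (0.98 to 1.23). Stem and progenitor markers were present: 12 of 13 were measured, and the summed intensity was 9966 to 10382 in Apcmin and 8970 to 10397 in WT. Of the 11 measured mature myeloid markers, 8 had a mean of at least 6. The list summed to 14372 to 14957 in Apcmin and 13852 to 16718 in WT. Most of this came from granule genes such as Mpo and Elane, which progenitors also express, and from S100a8 and S100a9. Other granule genes were bright too: Camp averaged 9.52 in Apcmin and 9.66 in WT, Ngp 9.04 and 8.99, and Ltf 7.29 and 7.16. Of the surface markers in that list, Csf1r was bright, at 8.24 in Apcmin and 8.42 in WT. The other measured ones were dim. Itgam averaged 2.64 in Apcmin and 2.75 in WT, Adgre1 averaged 2.75 in Apcmin and 2.5 in WT, and Cd14 averaged 3.31 in Apcmin and 4.33 in WT. Erythroid markers summed to 1748 to 2753 in Apcmin and 1804 to 2895 in WT. Endothelial and stromal markers were dimmer, with sums of 283 to 326 in Apcmin and 341 to 408 in WT. Of the 10, 7 were lower in Apcmin, where 69.1% of all genes under 6 were lower, and the groups overlapped in each. Only 2 of the 10 had a mean of at least 6, and they made up most of the sum. Tek averaged 6.94 in Apcmin and 7.32 in WT, and Pecam1 6.71 and 7.01.

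**Figure D1:**
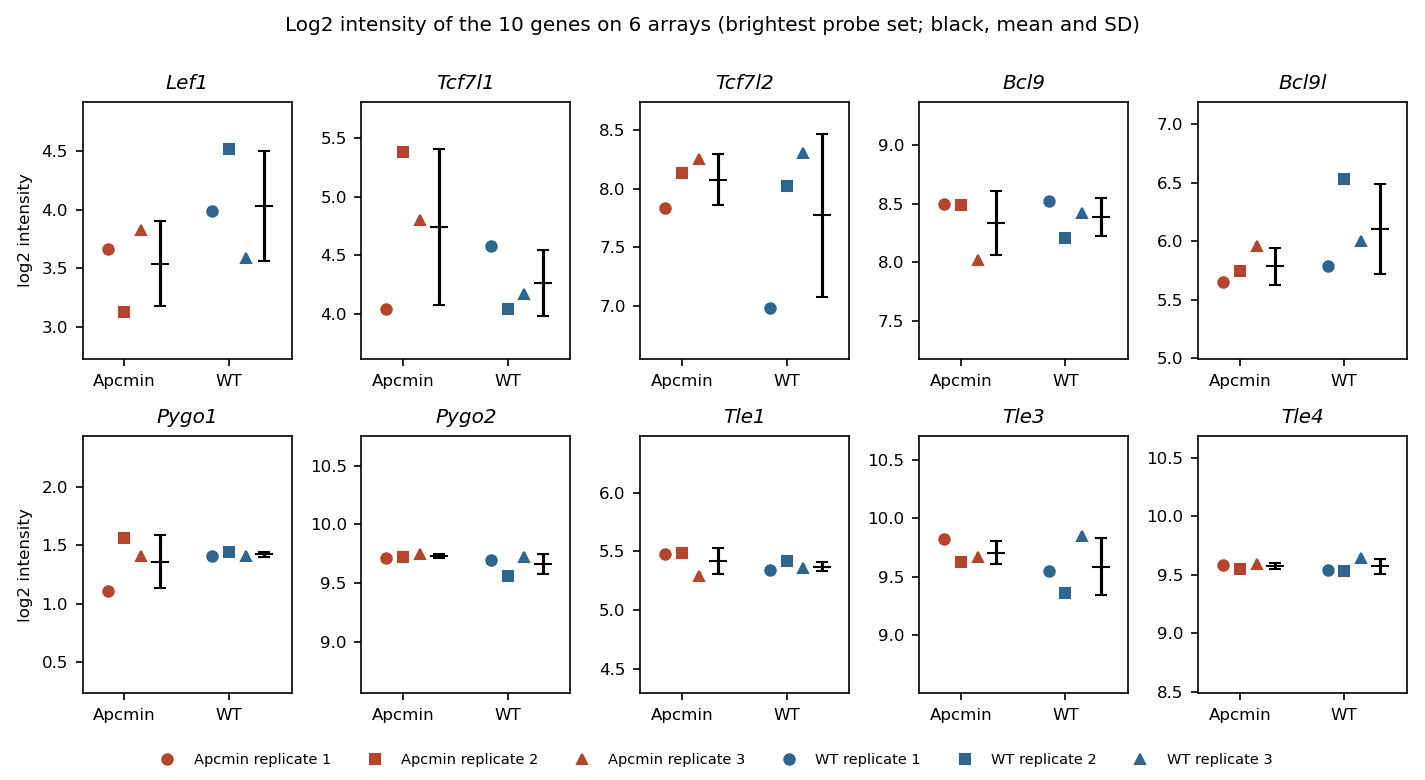
Log2 intensity of the 10 genes on each array, at the brightest probe set, with Apcmin left of WT in each panel, a span of the same size on every vertical axis, and the mean with its SD (n = 3) in black. Pygo2 and Tle4 sit within 0.19 and 0.11 over all 6 arrays, whereas Tcf7l2 has WT replicate 1 at 6.98, below its other arrays.

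Lef1, the factor best known from lymphocyte development and itself a Wnt target, was dim and lower in Apcmin at both of its probe sets. It was at 3.66, 3.13 and 3.83 in Apcmin, against 3.99, 4.52 and 3.58 in WT. WT replicate 3 fell below 2 of the Apcmin arrays, so the groups overlapped. The means were 3.54 ± 0.37 in Apcmin and 4.03 ± 0.47 in WT (SD, n = 3 each). The difference was -0.49 (standard error 0.29) with a 95% interval from -1.18 to 0.20 (limma, adjusted p = 0.954). The other probe set, 1421299_a_at, was near the bottom of the range, at 1.19, 1.36 and 1.16 in Apcmin and 2.33, 1.64 and 1.44 in WT. Here each Apcmin array lay below each WT array, and the difference was -0.56 with an interval from -1.15 to 0.03.

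The Lef1 difference depended on scale and on single arrays. With values under 4 set to 4 it was -0.17, with a pseudocount of 16 it was -0.23, and leaving out each array gave values from -0.71 (without WT replicate 3) to -0.25 (without WT replicate 2). Of 14 T-cell markers 12 were measured, and 0 of them passed the test (limma). Their mean was lower in Apcmin in 10 of the 12, all of which were dim, where 69.1% of all genes under 6 were lower. The summed intensity of the 12 was 132 to 165 in Apcmin and 169 to 192 in WT. Cd3e, a chain of the T-cell receptor complex, averaged 2.40 ± 0.41 in Apcmin and 3.07 ± 0.65 in WT (SD, n = 3 each). Cd3g averaged 2.01 in Apcmin and 2.10 in WT, so these chains were near the bottom of the range in both genotypes. Other T-cell markers were less dim: Il7r averaged 5.40 in Apcmin and 5.65 in WT, and Cd4 4.71 and 4.62. Zap70 differed most, at 3.61 in Apcmin and 4.79 in WT. In 1 of the 12 the groups did not overlap, where the share over all genes was 7.73%. All 9 measured B-cell markers had lower means in Apcmin, 0 passed, and 8 of the 9 were dim, with summed intensities of 304 to 425 in Apcmin and 397 to 443 in WT. The part of lymphoid markers in the Lef1 difference was not tested. In bulk RNA fewer cells of a type and less RNA per cell cannot be told apart.

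Tcf7l1, which acts mainly as a repressor and is best known from embryonic stem cells, gave opposite signs at its 2 probe sets. The brighter was at 4.04, 5.38 and 4.80 in Apcmin and 4.58, 4.04 and 4.17 in WT. Apcmin replicate 1 was as low as the lowest WT array, and Apcmin replicate 2 was the highest of all. The difference was 0.48 (standard error 0.35, adjusted p = 0.954 in limma), or 0.16 without Apcmin replicate 2 and 0.83 without Apcmin replicate 1. At the other probe set, 1450117_at, the values were 4.0, 3.88 and 3.63 in Apcmin and 4.0, 3.96 and 4.62 in WT, a difference of -0.36. Both probe sets were dim, and they gave Tcf7l1 no common direction, so that the mean of both differed by only 0.06.

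Tcf7l2, the main factor of the intestinal crypt, was the bright Tcf/Lef gene and the bright member that varied most. It was at 7.84, 8.14 and 8.26 in Apcmin, against 6.98, 8.03 and 8.30 in WT. WT replicate 1 lay 1.13 below the mean of the other arrays, and WT replicate 3 lay above every Apcmin array. The means were 8.08 ± 0.21 in Apcmin and 7.77 ± 0.70 in WT (SD, n = 3 each), and the difference of 0.31 had an interval from -0.52 to 1.13 (limma, adjusted p = 0.954). Without WT replicate 1 the difference was -0.09, so its sign rested on that array.

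The low value of WT replicate 1 recurred at 2 of the 3 other Tcf7l2 probe sets, both of them dim (means of 3.48 and 3.07). The dimmer of these, 1429427_s_at, is annotated to the same sequence record as the brightest Tcf7l2 probe set, so it may not be an independent reading. Probe set 1425229_a_at was at 4.63, 3.10 and 3.19 in Apcmin and 1.95, 3.35 and 4.67 in WT. Probe set 1429427_s_at followed almost the same course, at 3.83, 2.92 and 3.04 in Apcmin and 1.41, 2.90 and 4.32 in WT. On both, WT replicate 3 was the highest array and WT replicate 1 the lowest, so WT spanned more than the whole Apcmin range. The last probe set, 1426639_a_at, was brighter than these 2, with a mean of 5.84, and did not share this. WT replicate 1, at 6.07, was the highest WT array there, the Apcmin values were 5.05, 6.57 and 5.81, and the difference was -0.07.

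**Figure D2:**
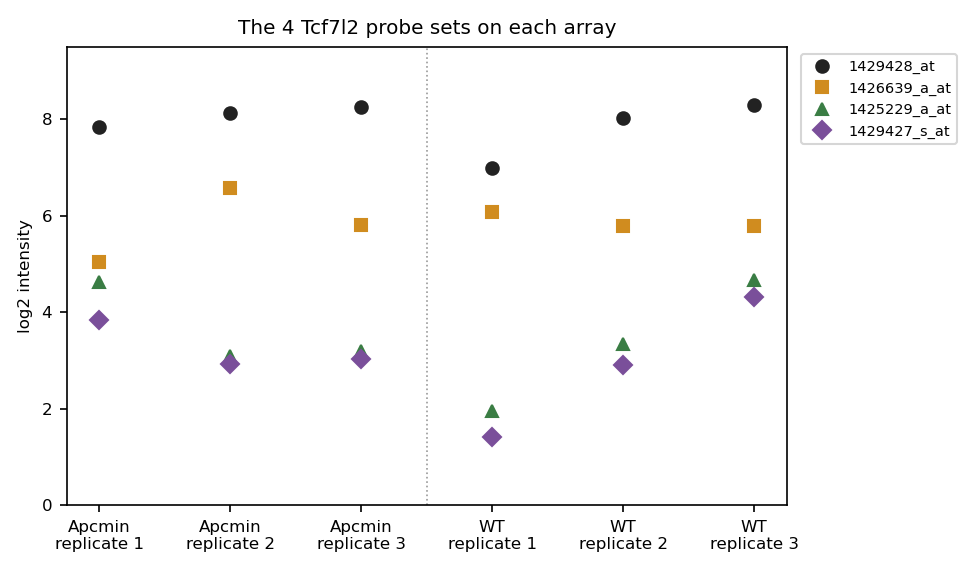
Log2 intensity (vertical axis) of the 4 Tcf7l2 probe sets on the 3 Apcmin and 3 WT arrays, one symbol per probe set, with a dotted line between the genotypes. WT replicate 1 is the lowest array for 3 of the 4 probe sets (6.98, 1.95 and 1.41), but at 6.07 is not low for 1426639_a_at.

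The genes closest to Tcf7l2 in their course over the arrays also had a low WT replicate 1, which follows from how they were chosen. Likeness was measured as the root mean square difference of centred log2 values over the 6 arrays, among 8428 genes with a mean of at least 6. Tmem63a, an ion channel of the membrane, was closest at 0.10, and was at 7.58, 7.71 and 7.98 in Apcmin and 6.81, 7.86 and 7.91 in WT. Inpp1, an inositol phosphate phosphatase, came next at 0.10, and then Clic5, a chloride intracellular channel protein, at 0.11, against a median of 0.46 over all genes compared.

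Bcl9, the adaptor between beta-catenin and Pygopus, was bright and close to equal in the genotypes. It was at 8.50, 8.49 and 8.02 in Apcmin and 8.53, 8.21 and 8.42 in WT. Apcmin replicate 3 was the lowest array and WT replicate 1 the highest, and the rest interleaved. The difference was -0.05 (standard error 0.19, adjusted p = 0.980 in limma), which corresponds to a fold of 0.965 with an interval from 0.707 to 1.32. The dim second probe set differed by -0.20. The genes most like Bcl9 over the 6 arrays were Slain2, a microtubule regulator (0.036 by the same measure), Mrpl27, a mitochondrial ribosomal protein (0.049), and Atg9a, an autophagy protein (0.052), against a median of 0.24 over the genes compared.

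Bcl9l, the paralogue of Bcl9, had lower means in Apcmin at each of its 3 probe sets, none of which passed. At the brightest it was at 5.65, 5.74 and 5.96 in Apcmin, against 5.79, 6.53 and 6.0 in WT. The Apcmin arrays lay within or just below the WT range, whose top was set by WT replicate 2. The difference was -0.32 (standard error 0.22, adjusted p = 0.954 in limma), and -0.11 without WT replicate 2. The dimmer probe sets differed by -0.42 (1438806_at, at 2.66, 2.96 and 2.99 in Apcmin and 3.39, 3.52 and 2.95 in WT) and by -0.45 (1443700_at). WT replicate 3 was the lowest WT array on both, and the groups overlapped at all 3 probe sets. All 3 Bcl9l probe sets lay at levels where the median difference of all genes was itself below 0. It was -0.02 from 4 to 6, where the brightest lay, and -0.18 from 2 to 4, where the dimmer 2 lay.

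Pygo2, the broadly expressed Pygopus protein whose PHD finger reads methylated histone H3, was bright and nearly constant. It was at 9.71, 9.72 and 9.75 in Apcmin and 9.70, 9.56 and 9.72 in WT. WT replicate 2 was the lowest array, and the others lay within a few hundredths of each other. The difference of 0.07 had an adjusted p of 0.965 in limma (standard error 0.13), and the fold was 1.05 with an interval from 0.843 to 1.30. Its pooled SD within genotypes was 0.06, where the median over the 3697 genes with a mean from 8 to 10 was 0.16 and the lower quartile 0.11.

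Pygo1, its paralogue, was read by a single probe set at the bottom of the range. It was at 1.11, 1.56 and 1.41 in Apcmin and 1.41, 1.44 and 1.41 in WT, a difference of -0.06 (limma, adjusted p = 0.973). The deposited intensity was the same number, 2.66, on 3 of the 6 arrays. Such repeated values occurred in 11.2% of the probe sets with a mean under 6 and 0.845% of those at 6 or more, and in both Tcf7l1 probe sets as well. Whether Pygo1 was expressed at all could not be read from these values.

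Tle4 and Tle3, Groucho corepressors that bind Tcf/Lef factors in place of beta-catenin, were bright in both genotypes. Tle4 was at 9.58, 9.55 and 9.59 in Apcmin and 9.54, 9.53 and 9.64 in WT, and spanned 0.11 over all 6 arrays. Its difference was 0.002 (standard error 0.13, adjusted p = 0.999 in limma), and the interval of the fold ran from 0.809 to 1.24. Tle3 was at 9.82, 9.63 and 9.67 in Apcmin and 9.55, 9.36 and 9.84 in WT. WT replicate 3 was the highest array and WT replicate 2 the lowest. The difference was 0.12 (standard error 0.17, adjusted p = 0.956 in limma), and a second bright Tle3 probe set, 1419654_at, gave 0.15.

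Tle1 was dim but steady at its brightest probe set, at 5.48, 5.48 and 5.29 in Apcmin and 5.34, 5.42 and 5.36 in WT. The difference was 0.05 with an interval from -0.28 to 0.37 (limma, adjusted p = 0.976). Its pooled SD within genotypes was 0.08, against a median of 0.37 over the 2358 genes with a mean from 4 to 6.

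Each Tle gene also had 1 dim probe set with a larger, positive difference, and the Tle1 difference was 0.38 when its probe sets were averaged. Tle3 probe set 1458512_at was at 5.14, 4.29 and 4.26 in Apcmin and 3.45, 2.90 and 4.43 in WT, a difference of 0.97. Tle1 probe set 1422751_at was at 4.17, 4.96 and 3.94 in Apcmin and 3.36, 3.52 and 4.08 in WT, a difference of 0.70. In both, WT replicate 3 overlapped the Apcmin arrays and the other 2 WT arrays lay below all of them. Tle4 probe set 1430384_at was at 4.76, 5.59 and 4.75 in Apcmin and 4.04, 4.69 and 4.53 in WT, a difference of 0.61 in which each Apcmin array lay above each WT array. The adjusted p was 0.954 for each of the 3 (limma). The bright Tle3 and Tle4 probe sets differed by 0.15 or less, and further dim ones went the other way, by -0.39 for Tle3 (1449554_at) and -0.42 for Tle4 (1425650_at).

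**Figure D3:**
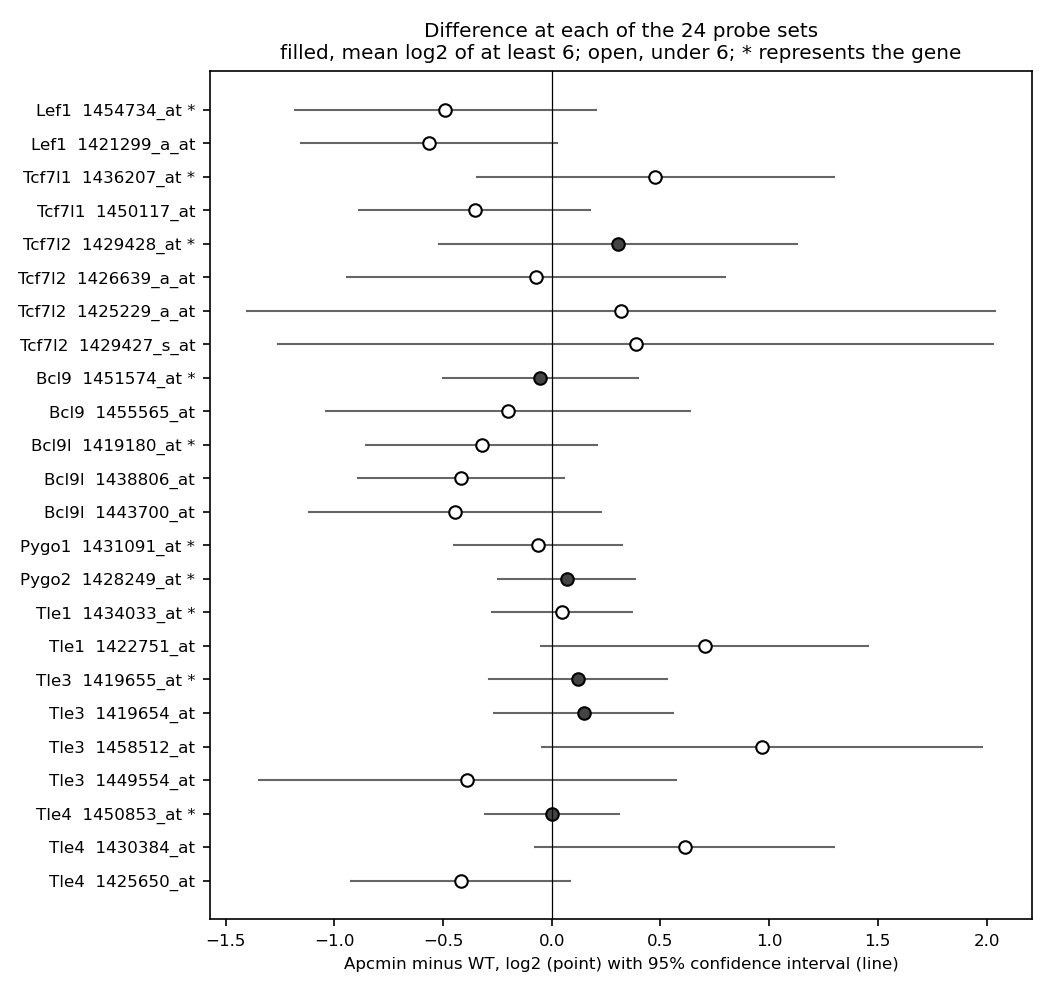
Apcmin minus WT difference on the log2 scale (horizontal axis) with its 95% confidence interval for the 24 probe sets, filled where the 6-array mean is at least 6 and open where it is lower. Every interval includes 0. The narrowest belong to Pygo2 and to the brightest probe sets of Tle1 and Tle4, whereas those of 2 dim Tcf7l2 probe sets run from -1.40 to 2.04 and from -1.26 to 2.03.

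Without WT replicate 3, 13.0% of all probe sets had an unadjusted p under 0.05 and 0.0% an adjusted p under 0.05 (limma). When each array was left out in turn, the difference ranged most widely for Tcf7l1, Tcf7l2 and Lef1. Over the 6 such fits the Pygo2 difference ran from 0.02 to 0.10, Tle3 from 0.01 to 0.25, Tle4 from -0.02 to 0.04 and Tle1 from 0.01 to 0.11. Lef1 and Bcl9l were lower, and Tcf7l1, Pygo2, Tle1 and Tle3 higher, in every such fit. The sign of Tcf7l2, Bcl9, Pygo1 and Tle4 turned in at least 1.

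**Figure D4:**
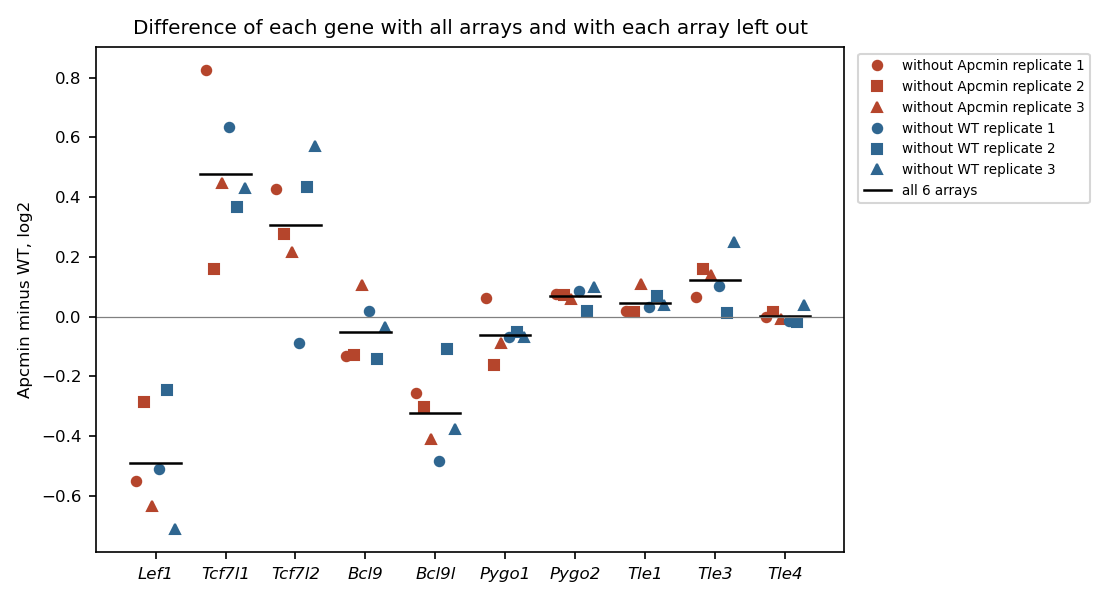
Apcmin minus WT difference on the log2 scale (vertical axis) of each gene with all 6 arrays (black bar) and with each array left out (symbols; red for an Apcmin array, blue for a WT array). Tcf7l2 falls to -0.09 without WT replicate 1, and Tcf7l1 ranges from 0.16 to 0.83.

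The other genes that act with or against beta-catenin on chromatin were also without a call. All 40 listed genes were measured, 36 with a mean of at least 6, and 0 passed (limma; 0 at an unadjusted p under 0.05). Of the 40, 29 were on average higher and 11 lower in Apcmin and the median difference was 0.07, where 56.3% of the genes with a mean of at least 6 were higher and their median was 0.02. In 3 of the 40, all higher in Apcmin, the groups did not overlap, where the share over all genes was 7.73%. Smarca4, the Brg1 ATPase of chromatin remodelling complexes, was at 8.72, 8.79 and 9.21 in Apcmin and 8.26, 8.71 and 8.69 in WT, though its other probe set had the opposite sign. Ruvbl1, an ATPase that binds beta-catenin, averaged 9.88 ± 0.07 in Apcmin and 9.69 ± 0.05 in WT (SD, n = 3 each). Rnf14, a ubiquitin ligase that binds Tcf/Lef factors, averaged 8.85 ± 0.04 in Apcmin and 8.71 ± 0.03 in WT (SD, n = 3 each), though not all of its 4 probe sets had the same sign. The adjusted p was 0.954 for each of the 3 (limma). Ctnnb1, which encodes beta-catenin itself, was at 11.87, 11.67 and 11.62 in Apcmin and 11.74, 11.48 and 11.67 in WT, a difference of 0.09. The Groucho relatives outside the set differed by 0.24 (Tle2), -0.02 (Tle5, a short form that opposes other Tle proteins) and -0.28 (Tle6).

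The targets of these factors gave no call either. Of 28 listed targets 26 were measured, 8 of them with a mean of at least 6, and 0 passed (limma; 2 at an unadjusted p under 0.05, where the share over all probe sets was 3.81%). Of the 26, 11 were on average higher and 15 lower in Apcmin, and the median difference was -0.04. In 2 of the 26 the groups did not overlap, which is near the share of 7.73% over all genes. They were Cdx1 (2.03, 2.06 and 2.03 in Apcmin and 2.32, 2.58 and 2.32 in WT) and Ccn4 (1.36, 1.43 and 1.41 in Apcmin and 1.84, 1.93 and 1.56 in WT). Cdx1 is an intestinal homeobox factor and Ccn4 a secreted Wnt-induced protein, and both lay at the bottom of the range. Axin2, which feeds back to restrain Wnt signalling, was at 3.0, 4.97 and 3.44 in Apcmin and 2.66, 3.44 and 3.24 in WT, with Apcmin replicate 2 far above the rest. The other Axin2 probe set had the opposite sign. Myc was at 10.18, 10.06 and 10.42 in Apcmin and 9.88, 10.45 and 10.51 in WT, and Ccnd1, cyclin D1, at 8.85, 8.96 and 8.86 in Apcmin and 8.64, 8.95 and 9.05 in WT. The genes whose sites are printed above were all dim, with differences of -0.04 for Sp5, -0.17 for Dkk1, -0.65 for Tnfrsf19 and 0.04 for Mmp7.

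**Figure D5:**
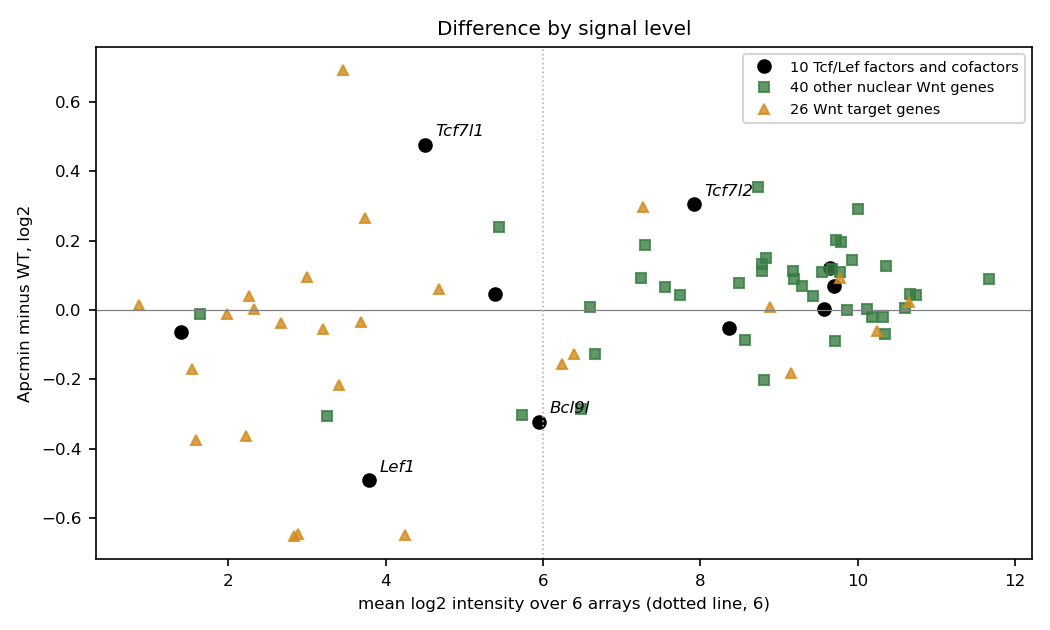
Apcmin minus WT difference on the log2 scale (vertical axis) against the mean log2 intensity over 6 arrays (horizontal axis; dotted line at 6) for the 10 Tcf/Lef factors and cofactors, 40 other nuclear Wnt genes and 26 target genes. Of the 10 genes, those above 6 lie between -0.05 and 0.31 and those below 6 between -0.49 and 0.48.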

How the data were processed

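The values the authors deposited were intensity values, 1 for each probe set on each array, normalized and not on a log scale. The submitters' processing notes name RMA, and neither its version nor its background correction is known from them. As all values were positive, log2 was taken with no pseudocount. Of 45101 probe sets, 64 controls were left out. Probe sets were named by the GEO platform annotation (34945 with 1 symbol, 932 with several, 9160 with none), and symbols were looked up by Entrez identifier in RefSeq GRCm38.p6 (34741 matched, 0 changed).

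Apcmin was compared with WT by limma 3.58.1 in R 4.3.3 (lmFit, then eBayes, with genotype alone in the model). P-values were two-sided, were adjusted over all 45037 probe sets by Benjamini-Hochberg, and were called under 0.05. The step was tested on simulated data. Genes named are the 10 members, list members whose genotypes did not overlap, a few fixed genes (Ctnnb1, Axin2, Myc, Ccnd1), and the genes most like the 2 bright members with the widest range. Chosen after their values were seen were Tle2, Tle5, Tle6, the cell type markers that are named singly, and the 4 target genes with printed sites. The members and lists were chosen with earlier results of these data known. The number of arrays limits the precision. Arrays with equal replicate numbers were not treated as pairs, because no label says that they share a source. The alternatives tried were another pseudocount, normalization, floor, filter, gene summary and variance model, a replicate block, a Y-linked covariate and leaving out each array.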

Additional observations from a re-analysis of the deposited data

How the results depend on the processing

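None of the 17 alternatives brought a call: 0 probe sets passed in each of them, and so did 0 members, 0 other nuclear genes and 0 targets, also with each array left out. The lowest adjusted p of a member gene was 0.746 with array weights among the alternatives that kept all arrays and 0.379 without WT replicate 3. The number of probe sets at an unadjusted p under 0.05, 1714 with all arrays, was 5864 without WT replicate 3, 2717 with array weights and 911 with values under 4 set to 4. The median difference over the members, 0.02, was 0.068 with the filter at a mean log2 of 6, which left 5 members, and ran from -0.0037 to 0.081 when each array was left out. Of 102 gene values under the alternatives that kept all arrays, 99 kept their sign. With further quantile normalization Pygo1 was at 0.0028, Tle1 at -0.023 and Tle4 at -0.019, and the cause was not tested. Sizes moved more: when the probe sets of each gene were averaged, the difference was 0.061 for Tcf7l1, 0.38 for Tle1, 0.21 for Tle3, 0.065 for Tle4 and -0.13 for Bcl9. Lef1 was then at -0.53 with an unadjusted p of 0.0298 (limma, adjusted p = 0.930), where 695 of 18193 genes were under 0.05. With the Y-linked covariate 3 of the 24 member probe sets had an unadjusted p under 0.05 (limma), against 2218 of all 45037. They were the dim Tle1 1422751_at (0.00398), Lef1 1454734_at (0.0355) and the dim Tle4 1430384_at (0.0418), each with an adjusted p of 0.891. Without Apcmin replicate 1 the brighter Tcf7l1 probe set had an unadjusted p of 0.0224 (limma, adjusted p = 0.9997). The pseudocount moved Tcf7l1 to 0.30, and array weights moved Tle3 to 0.19. The floor at 4 left Pygo1 without a value. Of 60 values with an array left out, 52 kept their sign. The ranges of those that did not were -0.088 to 0.57 for Tcf7l2, -0.14 to 0.10 for Bcl9, -0.16 to 0.063 for Pygo1 and -0.018 to 0.039 for Tle4. The replicate block gave 0 calls among the members and 1398 probe sets at an unadjusted p under 0.05. Deviations of same-numbered arrays correlated at 0.05, -0.05 and -0.25 over 15155 probe sets, and those of differently numbered arrays at -0.16 to 0.21. These values cannot show whether arrays shared a litter or day, because the deviations are taken from means of only 3 arrays. The numbers were not treated as pairs.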

Other observations

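WT replicate 3 had the lowest of the 6 array weights, 0.56, followed by WT replicate 1 at 0.64. Without WT replicate 3, 6 of the 24 probe sets of the Tcf/Lef factors and cofactors had an unadjusted p under 0.05, where the share over all probe sets was 13.0%, and 0 passed after adjustment (limma). They were both Lef1 probe sets (-0.71 and -0.75), the 2 dimmer Bcl9l probe sets (-0.58 and -0.76), and the dim probe sets of Tle1 (0.92) and Tle3 (1.38). These values were chosen after the data were seen and are given as a description.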
